A study of Mus musculus with 52 samples.

Results

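Sperm make much of their ATP by glycolysis, with germ-cell versions of several of its enzymes, and 5 genes for such enzymes were followed here. They are Aldoart1, Gapdhs, Pgk2, Ldhc and Pdha2, taken by gene name from the 34865 genes listed for testes. All 5 were found, each on 1 row. The tissue came from male mice of a mixed C57BL/6J and 129S6 background. Testes were collected from 4 wild type mice, from 4 Tug1-/- mice and from 3 rescue mice. In Tug1-/- mice a lacZ cassette stands in place of the body of Tug1, a long noncoding RNA gene, while its promoter and first exon remain. Rescue mice carry the same deletion plus tg(Tug1), a Tet-responsive Tug1 cDNA transgene inserted at random in the genome, and CAG-rtTA3, a constitutive activator that works only with doxycycline, which was given in the diet from the day of the mating plug. The cDNA lacks the 5′ part of the transcript, and the transgenic mice descended from 2 male founders that were mated separately. Wild type testes were labelled as free of the Neo selection marker. The Tug1-/- and rescue testes were labelled as carrying Neo and LacZ, whereas the study's methods describe a Tug1-/- colony selected to be free of the neomycin resistance gene. Where the labelled difference holds, it cannot be told apart from the Tug1 genotype. The methods also describe backcrossing of the colony to C57BL/6J, and CAG-rtTA3 was brought in from a separate mouse strain. The background of rescue mice may thus differ from that of the other groups. The tissues other than cultured fibroblasts were described as adult, and exact ages of the adult mice sequenced were not given in the sources used here. Eyes, heart, liver, spleen and MEFs (fibroblasts grown from male embryos of a stage given in the paper) were represented by 3 wild type and 3 Tug1-/- samples each. Prostate was represented by 3 and 2. Brain values came from libraries outside the series.

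Levels are the authors' mean of each group in TPM, which scales reads by the length of each gene and by the total of the library. For tissues other than testes the authors' mean normalised read count over both genotypes is given as well. No value of a single animal entered, and the authors' own statistics were not used. Thus no spread between animals, no interval and no test is given for any difference below, and depth per testes library is unknown. A gene's ratio is the log2 of one mean over another, with 0.1 TPM added to both. As a measure of how much genes differ between these means, the counts of isozymes past a fold limit are set beside the share of all genes past it, and these shares are the background for the gene lists too. Of all genes tested, 61.7% had a higher mean in Tug1-/- than in wild type, 52.5% in rescue than in Tug1-/- and 59.9% in rescue than in wild type, which is the background for counts of direction. The Tug1 mean was 40.1 TPM in wild type, 0.885 TPM in Tug1-/- and 1.60 TPM in rescue testes, so the deleted gene stood at 2.21% of the wild type mean in Tug1-/- testes.

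Glycolysis splits a hexose bisphosphate into trioses and oxidises these to pyruvate. Aldolase makes the split, glyceraldehyde-phosphate dehydrogenase performs the oxidation, and phosphoglycerate kinase transfers the resulting phosphate to ADP, which yields ATP. Lactate dehydrogenase then turns pyruvate into lactate and regenerates NAD+, while pyruvate dehydrogenase sends pyruvate into the mitochondrial cycle. Male germ cells use their own version of each of these enzymes. Aldoart1 is an aldolase A retrogene. Gapdhs encodes the spermatid glyceraldehyde-phosphate dehydrogenase, which a proline-rich extension ties to the fibrous sheath, a cytoskeletal sleeve of the sperm tail. Pgk2 is a retrogene of the X-linked Pgk1, Ldhc encodes the testis lactate dehydrogenase, and Pdha2 is a retrogene of the X-linked Pdha1, which encodes the alpha subunit of pyruvate dehydrogenase. Autosomal copies of this kind are active in meiosis, when the X chromosome is silenced. Mice without Gapdhs, Pgk2 or Ldhc are known to have poorly motile sperm and reduced or no male fertility.

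The genes lie on 4 chromosomes of GRCm38. Aldoart1 (ENSMUSG00000059343.4) is at chr4:72850583-72852634 on the minus strand, Pdha2 (ENSMUSG00000047674.2) at chr3:141210004-141212355 on the minus strand and Pgk2 (ENSMUSG00000031233.5) at chr17:40207018-40208609 on the minus strand. In GENCODE vM21 each of these 3 has a main coding transcript of 1 exon. Gapdhs (ENSMUSG00000061099.12) is at chr7:30729775-30743681 on the minus strand with 11 exons, and Ldhc (ENSMUSG00000030851.14) at chr7:46861203-46878142 on the plus strand with 8 exons. Ldhc begins 5575 bases after the end of its widely expressed relative Ldha.

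A sperm enzyme and its relative in other cells can be measured separately only where a read differs between them, so their coding sequences were compared. Coding identity was 73.2% between Ldhc and Ldha, 79.3% between Pgk2 and Pgk1, 68.6% between Gapdhs and Gapdh and 75.6% between Pdha2 and Pdha1. Aldoart1 stood apart, with 93.9% identity to Aldoa and 89.1% to Aldoart2, the other aldolase retrogene. The sequences below are, for each isozyme and its closest listed somatic relative, the 100 coding bases (about the length of a read) in which the pair differs least. They are shown because they are the hardest place to tell each pair apart. They are written 5′ to 3′ from GENCODE vM21, with the bases that differ in capitals, and where a stretch crosses introns the coordinates run from its first to its last base.

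For aldolase the least different stretch held 1 difference between Aldoart1 and Aldoa. The Aldoart1 stretch lies in its only exon, within the coding region.
Aldoart1, chr4:72851807-72851906, minus strand: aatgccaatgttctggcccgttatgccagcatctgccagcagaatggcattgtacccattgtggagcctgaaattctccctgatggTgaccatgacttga
Aldoa, chr7:126796243-126796636, minus strand: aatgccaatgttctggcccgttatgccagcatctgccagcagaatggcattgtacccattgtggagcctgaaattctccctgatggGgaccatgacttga

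For the other enzymes the least different stretch held 10 differences for Pdha2 and Pdha1, 13 for Gapdhs and Gapdh, 14 for Pgk2 and Pgk1, and 15 for Ldhc and Ldha. The Ldhc stretch lies across 2 exons, and the Gapdhs stretch across 3.
Pdha2, chr3:141211427-141211526, minus strand: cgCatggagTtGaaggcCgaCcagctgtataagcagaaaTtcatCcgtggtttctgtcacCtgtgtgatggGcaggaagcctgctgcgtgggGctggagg
Pdha1, chrX:160130211-160132143, minus strand: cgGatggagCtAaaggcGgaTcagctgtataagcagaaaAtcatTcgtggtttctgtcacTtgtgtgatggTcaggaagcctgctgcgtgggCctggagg
Gapdhs, chr7:30732338-30733059, minus strand: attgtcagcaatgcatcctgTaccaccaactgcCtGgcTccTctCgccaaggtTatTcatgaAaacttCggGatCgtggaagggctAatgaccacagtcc
Gapdh, chr6:125162699-125162932, minus strand: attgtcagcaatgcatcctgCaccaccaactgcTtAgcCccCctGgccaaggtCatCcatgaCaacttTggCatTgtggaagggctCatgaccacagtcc
Pgk2, chr17:40208285-40208384, minus strand: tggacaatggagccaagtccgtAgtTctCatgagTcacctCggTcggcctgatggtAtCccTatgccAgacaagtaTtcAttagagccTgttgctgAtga
Pgk1, chrX:106194391-106194490, plus strand: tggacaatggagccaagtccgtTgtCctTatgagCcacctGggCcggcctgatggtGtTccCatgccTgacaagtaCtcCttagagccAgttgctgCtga
Ldhc, chr7:46873043-46875732, plus strand: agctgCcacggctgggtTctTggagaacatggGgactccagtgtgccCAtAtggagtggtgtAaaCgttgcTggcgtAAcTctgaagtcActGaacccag
Ldha, chr7:46851016-46851933, plus strand: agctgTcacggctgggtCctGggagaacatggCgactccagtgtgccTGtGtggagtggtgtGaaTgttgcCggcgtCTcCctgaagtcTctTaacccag

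Of all stretches of 100 bases in the main transcript of each of the 5 genes, 0 occurred in a transcript of another gene, on either strand. The counting kept uniquely mapped reads, so a perfect read from any of these transcripts has a place of its own among annotated transcripts. For Aldoart1 a read is set apart from Aldoa by as few as 1 base, and the part of misplaced reads in its values was not tested. Gapdhs is overlapped on the other strand by the antisense genes Tmem147os and Gm26935. The library kit did not mark strand, and reads of overlapping genes could not be told apart by it. In wild type testes these antisense genes had means of 20.1 TPM and 10.1 TPM.

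All 5 isozymes had high means in testes of all 3 groups, and Ldhc was the most abundant. The Ldhc mean was 5525 TPM in wild type, 5637 TPM in Tug1-/- and 5551 TPM in rescue testes, which made it the gene with the 6th highest mean in wild type testes. Gapdhs ranked 24 with 2094 TPM in wild type, 1939 TPM in Tug1-/- and 1955 TPM in rescue testes. Pgk2 ranked 41, and its means were 1597 TPM, 1577 TPM and 1507 TPM in the same order. The remaining genes were lower, with a Pgk2 mean 8.18 times that of Pdha2 in wild type testes. Pdha2 had 195 TPM in wild type, 209 TPM in Tug1-/- and 218 TPM in rescue testes. Aldoart1 had 183 TPM, 173 TPM and 168 TPM in that order. The order of the 5 genes was the same in all 3 groups. Pdha2 and Aldoart1, the closest neighbours in that order, were 12.0 TPM apart in wild type and 49.7 TPM apart in rescue testes. Added together the 5 genes made up 0.960% of all TPM in wild type, 0.954% in Tug1-/- and 0.941% in rescue testes.

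**Figure D1:**
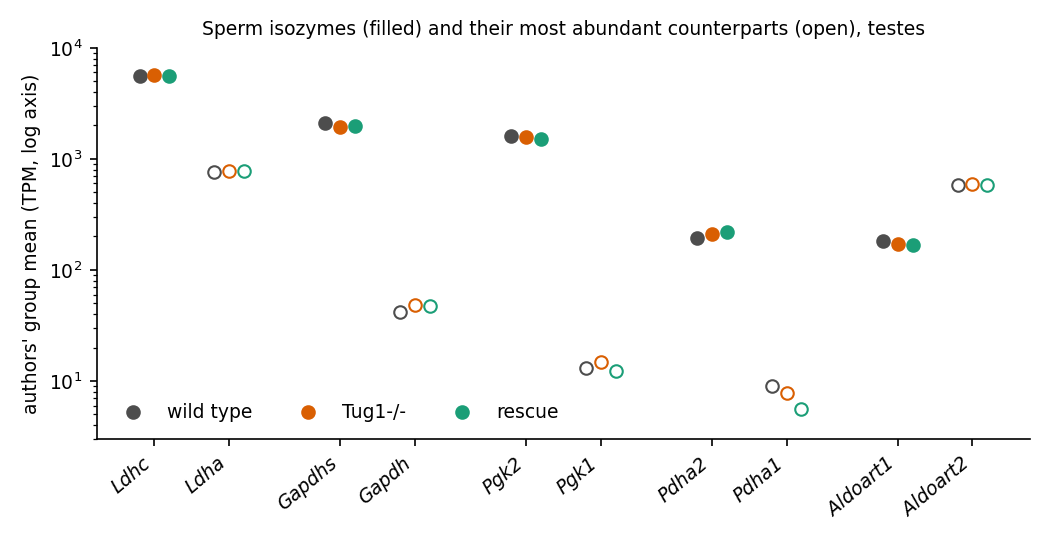
Authors' group mean in TPM (log axis) of each sperm isozyme (filled points) and of its most abundant counterpart (open points) in wild type, Tug1-/- and rescue testes; each point is 1 group mean without an error. The 3 points of each sperm isozyme lie close together, between 5525 and 5637 TPM for Ldhc and between 168 and 183 TPM for Aldoart1, and all sperm isozymes except Aldoart1 lie above their counterpart.

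The first comparison asks whether deletion of Tug1 went with other levels of these mRNAs. Of the 5 genes, 0 were past 1.5-fold in either direction between Tug1-/- and wild type testes, where 6.26% of the 22378 genes with at least 1 TPM were. At a limit of 1.2-fold the count was again 0 of 5, against 18.4% of all genes. For 5 genes such shares amount to 1 gene or fewer, so a count of 0 does not set the isozymes apart from the rest. Most genes past the limit were of low level, as 275 of the 1401 genes past 1.5-fold had at least 10 TPM. The log2 ratio of Tug1-/- over wild type was 0.03 for Ldhc and -0.02 for Pgk2, so their Tug1-/- means were 102% and 98.7% of the wild type means. It was -0.09 for Aldoart1 and -0.11 for Gapdhs, whose Tug1-/- means were 94.2% and 92.6% of wild type. Pdha2 was on the other side with 0.10, or 107% of wild type. The direction for Ldhc depended on the scaling, as its ratio became -0.0032 when centred on the median of all genes and -0.05 when centred on spermatocyte and round spermatid markers, where Pgk2 was at -0.10 and Pdha2 at 0.02. The median over the 5 genes was -0.02, and over all genes tested it was 0.03.

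The second comparison asks how the levels stood in Tug1-/- mice that also carried the transgene and CAG-rtTA3. The paper describes the rescue mice as fed doxycycline. Transgene, CAG-rtTA3 and diet cannot be told apart in either comparison with rescue testes. Between rescue and Tug1-/- testes, 0 of 5 genes were past 1.5-fold (4.65% of 22180 genes) and 0 of 5 were past 1.2-fold (15.7%). The log2 ratio of rescue over Tug1-/- was 0.06 for Pdha2, 0.01 for Gapdhs, -0.02 for Ldhc, -0.04 for Aldoart1 and -0.07 for Pgk2. Between rescue and wild type testes, 0 of 5 were past 1.5-fold (7.93% of 22393 genes) and 0 of 5 past 1.2-fold (23.0%). Here the log2 ratio was 0.16 for Pdha2, 0.01 for Ldhc, -0.08 for Pgk2, -0.10 for Gapdhs and -0.12 for Aldoart1. Centring turned Ldhc in rescue over wild type to -0.03 on all genes and to -0.10 on the germ-cell markers, and Gapdhs in rescue over Tug1-/- to -0.01 on the latter. The 3 comparisons use the same 3 means in pairs and are not independent of each other. Pdha2 thus had its lowest mean in wild type and its highest in rescue testes, and Aldoart1 and Pgk2 had theirs in the opposite order. Without the spread between animals it cannot be said which of these differences exceed it.

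Genes of like abundance give a narrower background. Among the 90 genes with at least 1000 TPM in wild type testes, the ratio of Tug1-/- over wild type lay between -0.13 and 0.06 at the 5th and 95th percentiles. Ldhc, Pgk2 and Gapdhs were inside this range, and 7.78% of these genes had a lower ratio than Gapdhs. Among the 1902 genes from 100 to 1000 TPM the range was -0.11 to 0.11. Aldoart1 was inside it with 8.04% of the genes lower, and so was Pdha2 with 93.2% of the genes lower. All 5 isozymes were also within these percentiles in both comparisons with rescue testes. Between the 25th and 75th percentiles of their abundance class were 1 of 5 in Tug1-/- over wild type, 3 of 5 in rescue over Tug1-/- and 1 of 5 in rescue over wild type. Pdha2 was near the upper bound between rescue and wild type, with 94.8% of genes of its abundance lower.

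**Figure D2:**
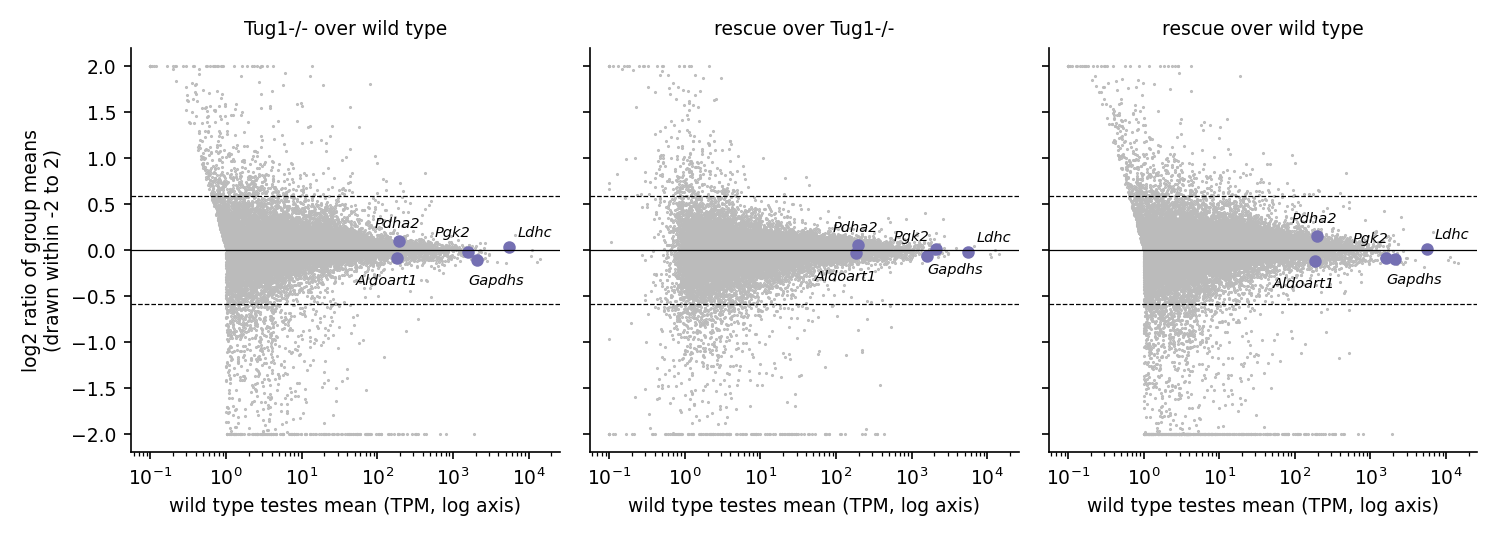
Log2 ratio of group means against the wild type testes mean in TPM (log axis) for all genes with at least 1 TPM in either group (grey, drawn within -2 to 2) and the 5 sperm isozymes (purple), in each of the 3 comparisons. Dashed lines mark 1.5-fold, and all 5 isozymes lie between them, Gapdhs at -0.11 and Pdha2 at 0.10 in Tug1-/- over wild type. The grey cloud narrows from genes of 1 to 10 TPM to genes of 100 to 1000 TPM.

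The sperm isozyme followed here supplied most of the mRNA of its enzyme in testes, except for Aldoart1. The share is the mean of the sperm gene as a percentage of the summed TPM of the sperm gene and its relatives. Pgk2 was 99.2% of Pgk2 plus Pgk1 in wild type, 99.1% in Tug1-/- and 99.2% in rescue testes. Gapdhs was 98.0%, 97.6% and 97.6% of Gapdhs plus Gapdh in the same order. Pdha2 was 95.6%, 96.4% and 97.5% of Pdha2 plus Pdha1. Ldhc was 86.1%, 85.5% and 85.3% of Ldhc, Ldha and Ldhb together, as a further relative, Ldhal6b, had no row. Of these 4 enzymes lactate dehydrogenase had the largest remainder, with an Ldha mean of 759 TPM in wild type testes.

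Aldolase was supplied by several genes. Aldoart1 was 16.1% of the aldolase total in wild type, 15.2% in Tug1-/- and 14.9% in rescue testes. Aldoart2, also a retrogene, had the highest mean, with 585 TPM, 591 TPM and 584 TPM, and both retrogenes together made up 67.6%, 67.1% and 66.8% of the total. Aldoa was listed under 2 identifiers with wild type means of 297 TPM and 64.4 TPM, which were added for the share. Aldoc had 5.91 TPM in wild type testes. These shares rest on a sequence identity of 89.1% to 93.9% between Aldoart1 and its relatives.

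The somatic relatives had log2 ratios from -0.22 to 0.44 in Tug1-/- over wild type, and most were of lower level than the sperm isozymes. The Ldhb mean was 131 TPM in wild type, 178 TPM in Tug1-/- and 174 TPM in rescue testes, a log2 ratio of 0.44 for Tug1-/- over wild type. Of the genes from 100 to 1000 TPM, 99.1% had a lower ratio than Ldhb there, and 99.1% in rescue over wild type. Of the 8 rows of somatic relatives with at least 1 TPM, Ldhb was the only 1 past 1.2-fold in Tug1-/- over wild type. The Gapdh mean was 41.8 TPM, 48.1 TPM and 47.3 TPM in the same order, and that of Pgk1 was 13.1 TPM, 14.8 TPM and 12.4 TPM. Pdha1 had 8.92 TPM in wild type, 7.83 TPM in Tug1-/- and 5.62 TPM in rescue testes, a log2 ratio of -0.66 for rescue over wild type. Aldoc had 5.91 TPM, 5.08 TPM and 3.69 TPM and a log2 ratio of -0.67 in the same comparison, and these were the 2 somatic relatives past 1.5-fold lower there. Of the genes from 1 to 10 TPM, 7.11% had a lower ratio than Pdha1 in rescue over wild type, and 6.98% a lower ratio than Aldoc. Ldha had 759 TPM, 777 TPM and 782 TPM.

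The rest of the glycolytic path was described from a list of 29 genes for sugar uptake, the other enzyme steps and lactate transport, of which 28 were listed and 26 reached 1 TPM. In Tug1-/- over wild type 16 of 26 had the higher mean in Tug1-/- and 10 the lower, close to the 61.7% of all genes, with a median log2 ratio of 0.01. Past 1.5-fold were 1 higher and 0 lower. The higher gene, named after its values were seen, was Emb, which encodes a partner protein of monocarboxylate transporters, with 6.45 TPM in wild type, 11.1 TPM in Tug1-/- and 7.70 TPM in rescue testes and a log2 ratio of 0.77 for Tug1-/- over wild type. The most abundant was Pgam2, a phosphoglycerate mutase, with 1765 TPM in wild type, 1743 TPM in Tug1-/- and 1898 TPM in rescue testes. Among genes of at least 10 TPM in wild type testes, the lowest ratio was that of Hk1, the hexokinase that starts glycolysis, with 696 TPM, 645 TPM and 649 TPM and a log2 ratio of -0.11. The highest among these was 0.31 for Slc16a1, a monocarboxylate transporter, with 23.2 TPM, 28.8 TPM and 26.2 TPM. In rescue over Tug1-/- 16 of 26 were higher, and in rescue over wild type 17 of 26, with medians of 0.01 and 0.05 (52.5% and 59.9% of all genes). Pyruvate uptake and the other parts of pyruvate dehydrogenase, the complex that Pdha2 belongs to, gave 12 of 13 genes. Of these 9 were higher and 3 lower in Tug1-/-, and in rescue over Tug1-/- 4 were higher and 8 lower. The median for Tug1-/- over wild type was 0.09 with 0 past 1.5-fold, from -0.03 for the kinase Pdk2 to 0.19 for the phosphatase Pdp1 among genes of at least 10 TPM in wild type testes.

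Other genes of sperm metabolism and structure were also close between the groups. Of 15 further germ-cell isoforms of metabolic genes, 9 had a higher and 6 a lower mean in Tug1-/-, with a median log2 ratio of 0.02. Of all genes 61.7% were higher. Past 1.2-fold were 0 of 15, against 18.4% of all genes. All 15 had at least 38.2 TPM in wild type testes, where ratios spread less. From 100 to 1000 TPM the 5th and 95th percentiles were -0.11 and 0.11, so the count of 0 does not set these isoforms apart. The most abundant was Cox8c, a cytochrome oxidase subunit, with 1442 TPM, 1466 TPM and 1543 TPM in wild type, Tug1-/- and rescue testes. The ratios ran from -0.16 for Oxct2b, a ketone body enzyme, to 0.14 for Slc25a31, the germ-cell ATP carrier of mitochondria. Of 7 genes of the fibrous sheath, the structure that holds Gapdhs protein, 4 were higher and 3 lower in Tug1-/-, with a median of 0.01. They ran from -0.08 for Akap4, the main sheath protein, to 0.08 for Ropn1l, the most abundant with 2301 TPM in wild type, 2430 TPM in Tug1-/- and 2404 TPM in rescue testes. In rescue over Tug1-/- all 7 sheath genes had the lower mean in rescue, with a median of -0.06, where 52.5% of all genes had the higher. In rescue over wild type 5 of 7 had the lower mean, with a median of -0.05, where 59.9% of all genes had the higher. Markers of elongating spermatids were also lower in rescue than in Tug1-/- for 7 of 10 genes.

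**Figure D3:**
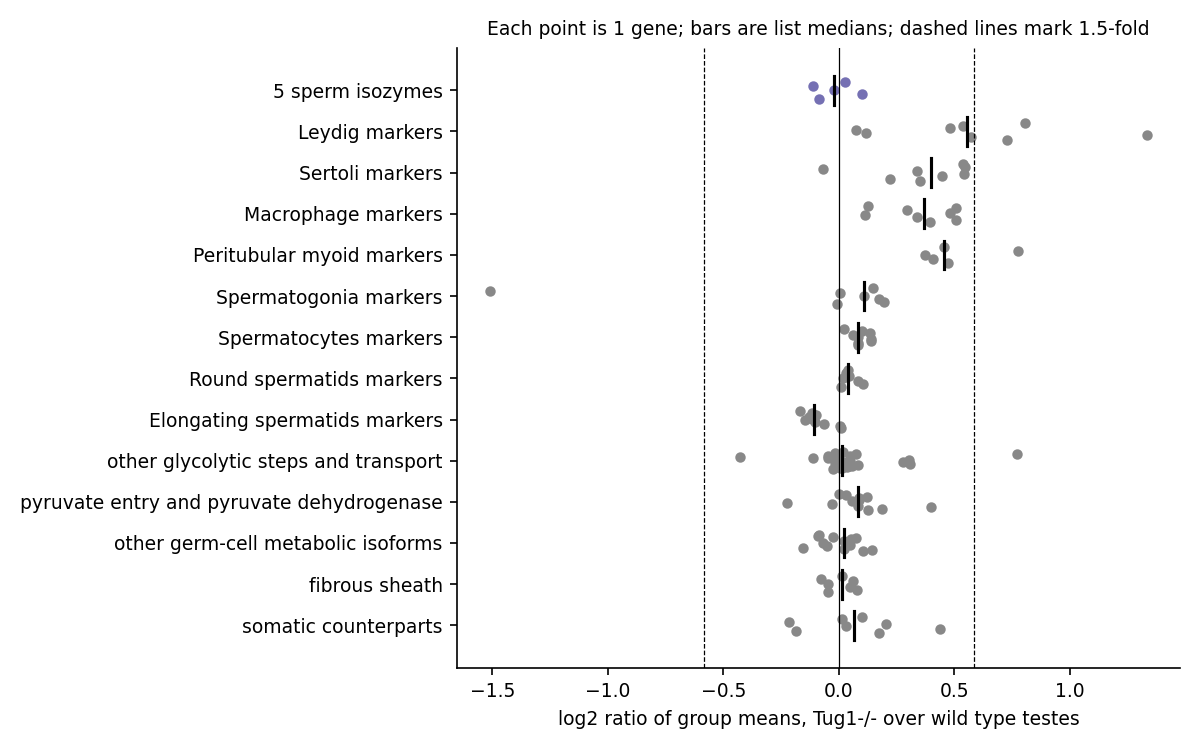
Log2 ratio of group means, Tug1-/- over wild type testes, for the 5 sperm isozymes (purple), marker genes of testis cell types and gene lists of metabolism and the fibrous sheath (grey); each point is 1 gene with at least 1 TPM in either group, bars are medians and dashed lines mark 1.5-fold. The isozymes run from -0.11 to 0.10 and overlap the germ-cell lists, while the medians of the Leydig, Sertoli, macrophage and peritubular myoid markers lie between 0.37 and 0.55.

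In bulk RNA such as this, fewer cells of a type cannot be told apart from less RNA per cell. Marker genes of germ cell stages stood on both sides of 0 in Tug1-/- over wild type. Of 9 spermatocyte markers all were higher in Tug1-/-, from 0.02 for Ccna1 to 0.14 for Spo11, with a median of 0.09. Of 7 round spermatid markers all were higher, with a median of 0.04. Of 10 markers of elongating spermatids 8 were lower, with a median of -0.11, and their summed level was 59756 TPM in wild type, 56384 TPM in Tug1-/- and 55019 TPM in rescue testes. The isozyme ratios, from -0.11 to 0.10, lay within the span of these 3 lists, -0.17 to 0.14. This span was wider than the 5th to 95th percentile ranges of their abundance classes, so lying within it does not tie the isozymes to any stage. In rescue over wild type all 9 spermatocyte markers were higher with a median of 0.16, all 10 markers of elongating spermatids were lower with a median of -0.13, and 3 of 7 round spermatid markers were higher. Markers of spermatogonia had a median of 0.11 in Tug1-/- over wild type, with 5 of 7 higher. Gfra1, a receptor of spermatogonial stem cells, went the other way with a log2 ratio of -1.51 in that comparison. Its means were 11.1 TPM in wild type, 3.84 TPM in Tug1-/- and 4.0 TPM in rescue testes.

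Somatic cell markers differed more. Of 8 Leydig markers all were higher in Tug1-/-, with a median of 0.55, and they summed to 671 TPM in wild type, 962 TPM in Tug1-/- and 764 TPM in rescue testes. Of 8 macrophage markers all were higher with a median of 0.37, of 8 Sertoli markers 7 with 0.40, and of 5 peritubular myoid markers all 5 with 0.46. In rescue over wild type the medians were 0.25 for Leydig, 0.38 for macrophage, 0.56 for Sertoli and 0.24 for peritubular myoid markers. Sertoli markers were higher in rescue for 8 of 8 genes, 4 of them past 1.5-fold, and summed to 717 TPM in wild type, 849 TPM in Tug1-/- and 915 TPM in rescue testes. Genes of the epididymis, the duct that sperm enter after the testis, were also present. The 7 markers summed to 3186 TPM in wild type, 802 TPM in Tug1-/- and 1.75 TPM in rescue testes, and 6 of 7 were past 1.5-fold lower in Tug1-/- than in wild type. Lcn8 had 799 TPM, 0.244 TPM and 0.160 TPM in that order, whereas Crisp1, which made up most of the Tug1-/- sum, had 427 TPM, 760 TPM and 0.348 TPM. Epididymis transcripts were thus part of the wild type and Tug1-/- means and near 0 in the rescue mean. The part of these somatic and epididymis transcripts in the isozyme means was not tested.

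Outside the testes all 5 isozymes were far lower or not listed. The highest mean in any other tissue and either genotype was 0.558% of the wild type testes mean for Aldoart1, 0.250% for Gapdhs, 0.0150% for Pgk2 and 0.00309% for Ldhc. Pdha2 had no row in any of the 7 other tissues, from which genes with fewer than 3 reads in every library had been removed. Of the 1992 genes with at least 100 TPM in wild type testes, 651 (32.7%) were below 1% of that mean in all other tissues, so this restriction was shared with many testis genes.

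Gapdhs was the only isozyme listed in all 7 tissues. Its wild type mean was highest in spleen with 5.23 TPM and eyes with 5.15 TPM, followed by brain with 3.67 TPM and prostate with 3.49 TPM. It was 1.11 TPM in MEFs, 1.01 TPM in heart and 0.937 TPM in liver. Without a spread it cannot be said which neighbours in this order differ, and the widest step was that from prostate to MEFs. The Tug1-/- means were 5.22 TPM in spleen, 5.21 TPM in eyes, 4.06 TPM in brain, 3.78 TPM in prostate, 1.55 TPM in MEFs, 0.759 TPM in heart and 0.938 TPM in liver. The mean normalised read count per library over both genotypes ran from 22.0 in MEFs to 125 in spleen. In wild type mice the antisense gene Tmem147os had 27.9 TPM in brain, 23.4 TPM in eyes, 13.6 TPM in prostate and 11.1 TPM in spleen. It had 3.71 TPM in MEFs, 2.93 TPM in heart and 2.60 TPM in liver, and its part in the Gapdhs values was not tested. Gapdhs made up at most 2.91% of Gapdhs plus Gapdh outside the testes, in spleen.

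Aldoart1 was listed in 6 tissues with wild type means from 0.116 TPM in spleen to 0.836 TPM in eyes. In eyes, where it was highest, Aldoa had 2588 TPM and the Aldoart1 mean came with 26.3 normalised reads per library. In heart the Aldoart1 mean was 0.252 TPM for wild type against 0.516 TPM for Tug1-/- mice, on 15.4 reads. Ldhc was listed in spleen (0.171 TPM for wild type and 0.157 TPM for Tug1-/- mice, on 3.88 reads) and in eyes (0.106 TPM and 0.0412 TPM, on 1.55 reads). Pgk2 was listed in spleen alone, with 0.239 TPM and 0.154 TPM on 4.54 reads. No spread between samples was set beside these differences between genotypes. The Ldhc and Pgk2 counts were below 5 normalised reads per library on average over both genotypes. Of the 10 markers of elongating spermatids, 2 had a row in liver and 6 in eyes. Those listed summed to between 0.290 TPM in liver and 7.70 TPM in eyes of wild type mice, with 4.85 TPM in spleen and 4.63 TPM in brain. Other germ-cell lists had another order in wild type mice. Round spermatid markers had their highest sum in prostate with 8.27 TPM, and spermatocyte markers had theirs in liver with 11.5 TPM.

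**Figure D4:**
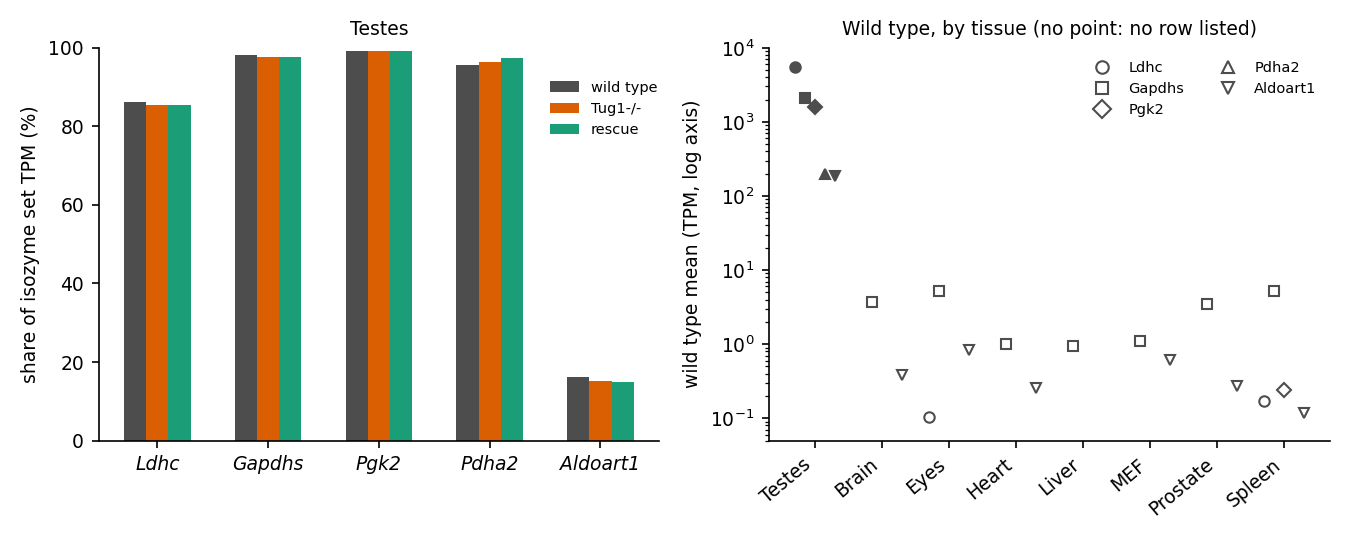
Left, the share of each sperm isozyme in the summed TPM of its enzyme set (%) in wild type, Tug1-/- and rescue testes; right, the wild type mean in TPM (log axis) of each isozyme in testes (filled) and in 7 other tissues (open), with no point where no row was listed. Shares were above 85% in all groups except for Aldoart1 at 14.9% to 16.1%, and no isozyme was above 5.23 TPM in wild type tissues other than testes.

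Genes with the most similar levels were sought over all 17 group means, as the smallest Euclidean distance of log2 values among 10372 genes with at least 10 TPM in wild type testes. The 3 nearest to Ldhc were Smcp, Tnp2 and Odf1, at distances of 2.34, 2.61 and 2.93. These genes encode a protein of the sperm mitochondrial capsule, a transition protein that replaces histones in spermatid chromatin and a protein of the outer dense fibres of the tail. Nearest to Pgk2 were Hrasls5 (1.5), 1700019M22Rik (2.22) and Cox8c (2.22), and nearest to Gapdhs were Phf7 (4.37), Rsph1 (4.89) and Sh3d21 (5.18). Aldoart1 was nearest to Sox30 (2.46), Fam178b (2.67) and 4921536K21Rik (2.97). The smallest distances were those of Pdha2 to Hdgfl1 (0.0790), Mir468 (0.0896) and Wfdc15a (0.0981). Genes without a row in a tissue were set to 0 there, so for Pdha2 the distance reflects the 3 testes means. The 17 means come from 8 tissues, and within a tissue the groups share much of their profile.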

How the data were processed

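RNA was made into polyA libraries without strand marking and sequenced as read pairs. Per the labels the authors used CASAVA 1.8.2, STAR, featureCounts and DESeq2. Reads were aligned to GRCm38, uniquely mapped reads were counted per gene, and a gene was kept where at least 1 replicate had 3 reads. Whether counting used strand is not given in the sources used here. The deposited values used here are the authors' mean TPM per group, and for the other tissues also the authors' mean normalised count per gene, a signal over both genotypes. Summed over genes the latter came to 17573743 in brain and to between 38666994 (MEF) and 48341823 (eyes) in the other 6 tissues. The files also hold columns of the authors' own comparisons (log2 fold changes, statistics, standard errors, p-values and significance marks), which were not used. No column of single samples was left over.

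Ratios were log2((mean + 0.1)/(mean + 0.1)), for genes with at least 1 TPM in either group, and past 1.5-fold or 1.2-fold in either direction was counted. No test was possible on group means. Tables were joined on Ensembl identifiers because 30 gene names were repeated. Coding sequences and transcripts were taken from GENCODE vM21 (GRCm38) and aligned with Biopython 1.88. Python 3.11.15, numpy 2.4.6, pandas 2.3.3 and matplotlib 3.10.9 were used, and the ratio and count were tested on simulated data. Named genes were the 5 isozymes, their relatives, Tug1, from each list the most abundant gene and those of at least 10 TPM in wild type testes with the highest and lowest Tug1-/- over wild type ratio, and the 3 genes nearest to each isozyme. The genes and lists were chosen with earlier results of these data known. Alternatives were no pseudocount, a pseudocount of 1 TPM, centring, rescaling, other minimum levels and other sets of relatives. A ratio was taken to have moved at 0.1 or when it crossed a fold limit, a share at 5 percentage points and a count at 1.5 times. An item of the aldolase set is not reported here. F1 hybrid testes (3 wild type and 3 heterozygous samples) were not analysed here.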

Additional observations from a re-analysis of the deposited data

How the results depend on the processing

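Of 141 recomputed values, 117 stayed within the stated bounds and 24 moved. The count of isozymes past 1.5-fold or 1.2-fold was 0 of 5 in all 3 comparisons under all alternatives run. Without a pseudocount, with 1 TPM, or rescaled without mitochondrial genes and the 50 most abundant genes, the 15 isozyme ratios moved by at most 0.0092 and none changed sign. Centring on the median of all genes moved them by up to 0.04, and the Ldhc ratio became -0.0032 in Tug1-/- over wild type and -0.03 in rescue over wild type. Centring on the median of the 16 spermatocyte and round spermatid markers, chosen after seeing the data, shifted rescue over wild type by 0.10, to -0.10 for Ldhc, -0.19 for Pgk2, -0.20 for Gapdhs, 0.054 for Pdha2 and -0.23 for Aldoart1. In Tug1-/- over wild type it gave -0.05 for Ldhc, -0.10 for Pgk2, -0.19 for Gapdhs, 0.02 for Pdha2 and -0.17 for Aldoart1, and it turned Gapdhs in rescue over Tug1-/- to -0.01. The counts over all genes depended on the minimum level. Past 1.5-fold they were 3452, 3340 and 4370 with no minimum and 275, 107 and 328 at 10 TPM (Tug1-/- over wild type, rescue over Tug1-/- and rescue over wild type), and 819, 522 and 1074 with a pseudocount of 1 TPM. Past 1.2-fold they were 9791, 9524 and 11518 with no minimum and 848, 444 and 1149 at 10 TPM, and 2274 for rescue over Tug1-/- with a pseudocount of 1 TPM. Against Aldoart2 alone, the Aldoart1 share was 23.9%, 22.6% and 22.4% in wild type, Tug1-/- and rescue testes. No paired analysis was possible because the columns used hold group means and no values of single samples, and leaving out a replicate could not be run for the same reason.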
